A study of Triticum dicoccoides with 12 samples.

Results

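FBP, GAPN and petC are 3 genes of photosynthetic carbon and electron flow, chosen by name. The platform annotation pairs 771 genes with a probe set of the array, and only 13 of these have a symbol other than a locus number. It pairs the 3 genes with 5 of the array's 61290 probe sets, of which FBP and petC have a pair each and GAPN has 1. Whether probe sets without a paired gene also target them was not examined. The first probe set of each gene carries the results, and the dim second probe sets of FBP and petC are described separately. The choice used no measured value, but it was made with earlier results of these data known.

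The RNA came from wild emmer wheat, Triticum dicoccoides, a tetraploid wild relative of cultivated wheat. The 4 groups of 3 arrays each were the drought-resistant genotype Y12-3 (R) under terminal drought, the same genotype well-watered, the drought-susceptible genotype A24-39 (S) under terminal drought, and S well-watered. All plants were 10 weeks old, in reproductive growth in sand and peat, and the sampled organ is labelled phyllome, the leaf-like organs. Each genotype is 1 line, and the labels do not state whether replicates were separate plants, which means that p-values reflect only the spread between these samples, possibly a technical one. None of 19 marker symbols listed for leaf mesophyll, grain and root was paired with a probe set by the annotation. With only 13 genes named by symbol there, such matches were unlikely, and the organ label was not checked by markers.

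FBP is fructose-1,6-bisphosphatase, which removes a phosphate from fructose-1,6-bisphosphate. Plants use a plastid form in the Calvin cycle, where it helps to regenerate the carbon dioxide acceptor, and a cytosolic form on the path from triose phosphates to sucrose. The annotation does not say which form the probe sets target. GAPN is the non-phosphorylating glyceraldehyde-3-phosphate dehydrogenase, a cytosolic enzyme that oxidizes triose phosphate exported from the chloroplast and makes NADPH without making ATP. petC encodes the Rieske iron-sulfur protein of the cytochrome b6f complex, which passes electrons from plastoquinol to plastocyanin between the photosystems.

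A signal is called below the control level when it is under 129, the 95th percentile of 276 values from 23 probe sets that target no wheat transcript. The median signal of an array ran from 58.6 to 151.6 and was highest on R well-watered replicate 3. Ubiquitin, a wheat control transcript, had a ratio of its 3′ to its 5′ probe set, a measure of RNA integrity and labelling, of 0.228 to 0.252 in R under drought, against 0.205 to 0.336 in well-watered R. In S this ratio was 0.227 to 0.248 under drought and 0.232 to 0.283 in well-watered plants, so the ranges of drought and watered arrays overlapped in both genotypes. Another wheat control transcript is that of sucrose synthase, the enzyme that cleaves or forms sucrose. Its mean 3′ and 5′ signals were 18135 and 1503 in R under drought, against 3155 and 173 in well-watered R. In S they were 17009 and 660 under drought, against 3910 and 131 in well-watered plants. Its 5′ signal passed the control level on only 2 of 3 well-watered arrays per genotype, so no ratio is given. Whether RNA integrity differed between groups was not tested. The geometric mean signal of the 3 ubiquitin probe sets was 21685 to 28071 in R under drought, against 29752 to 37983 in well-watered R, ranges that did not overlap. In S it was 28446 to 30126 under drought, against 30309 to 36113 in well-watered plants, and these ranges also did not overlap. The drought changes of the 3 genes were therefore computed with ubiquitin as the scale as well.

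Drought lowered all 3 genes in both genotypes, and FBP and GAPN kept 10.1% to 13.9% of their well-watered mean signal while petC kept 34.3% to 45.2%. Each of the 6 drought comparisons passed the threshold of an adjusted p of 0.05 and every drought array lay below every well-watered array of its genotype. By comparison, 19.8% of the 38398 tested probe sets passed it with a lower value in R and 13.8% in S. Separation of the arrays in that direction was seen for 28% of tested probe sets in R and 22.3% in S. Being lower under drought was thus common on these arrays. In such bulk samples, fewer cells of a type and less RNA per cell cannot be told apart.

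FBP had a signal of 472, 1921 and 2707 in R under drought, against 10501, 15085 and 12564 in well-watered R. It had 1193, 1905 and 1659 in S under drought, against 15541, 16057 and 15589 in well-watered S. The well-watered S arrays were nearly equal, while R under drought spanned 5.74-fold between its lowest and highest array. The log2 change, on the scale of signal + 16, was −3.20 ± 0.45 in R (SE, adjusted p = 0.000104, limma) and −3.32 ± 0.45 in S (adjusted p = 0.000106). Only 1.87% of tested probe sets in R and 1.02% in S changed by as much or more in this direction. As ratios of mean signals, FBP was 7.48-fold lower under drought in R and 9.92-fold lower in S. The log2 changes differed less between the genotypes, and their difference did not pass its test, given with the interactions.

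GAPN had a signal of 224, 963 and 1667 in R under drought, against 7953, 10400 and 7526 in well-watered R. In S it had 1391, 2055 and 1399 under drought, against 11043, 12915 and 10967 in well-watered plants. The lowest of these values, on replicate 1 of R under drought, was 1.73 times the control level. The log2 decrease of GAPN was larger in size in R, at −3.54 ± 0.49 (SE, adjusted p = 8.92e-05, limma), than in S, at −2.86 ± 0.49 (adjusted p = 0.000645), but this difference did not pass a test of its own, given with the interactions. These changes were matched or exceeded downwards by 1.24% of tested probe sets in R and 1.72% in S.

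petC was the brightest of the 3 genes' probe sets on every array, which says nothing of its transcript number, since signals of different probe sets are not on 1 scale. Its signal was 10878, 24027 and 24579 in R under drought, against 55784, 48897 and 68748 in well-watered R. In S it was 22966, 33496 and 28871 under drought, against 66381, 66502 and 55728 in well-watered plants. The petC log2 change was −1.62 ± 0.29 in R (SE, adjusted p = 0.000572, limma) and −1.16 ± 0.29 in S (adjusted p = 0.00785). A decrease of that size or more was seen in 13.4% of tested probe sets in R and 15.1% in S, so petC lay well inside the spread of all transcripts while FBP and GAPN lay near its lower end. petC stayed at 12.6% to 52.3% of the highest signal on its array, and whether bright spots were saturated was not analysed here.

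**Figure D1:**
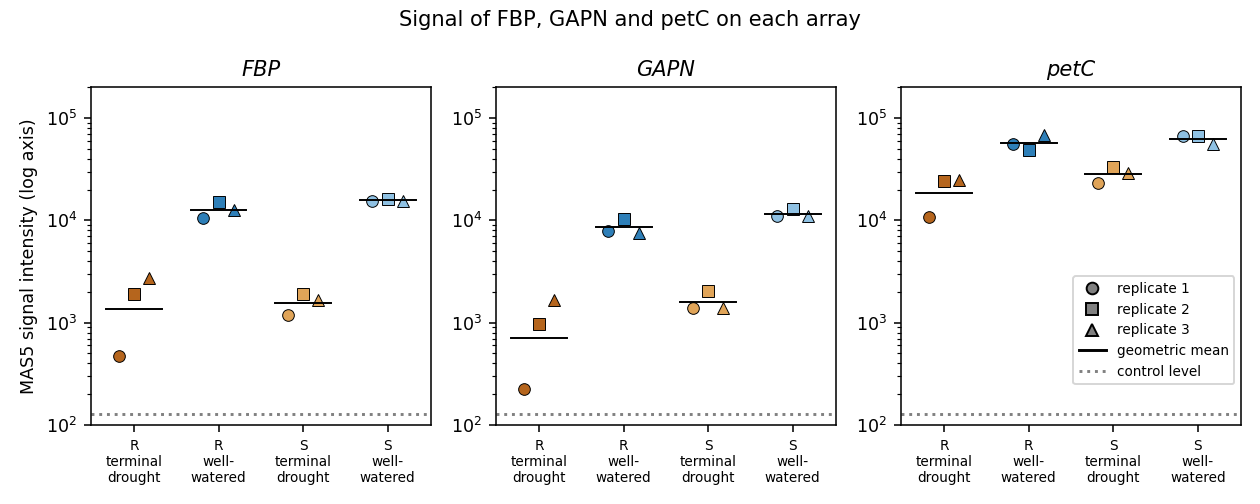
Signal of the first probe set of FBP, GAPN and petC on each of the 12 arrays, on a log axis, by genotype and water regime. Points are arrays (shape gives the replicate number), lines are geometric means of 3 arrays, and the dotted line is the control level of 129. All drought arrays lie below the well-watered arrays of their genotype, and replicate 1 of R under drought is the lowest array for each gene.

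**Figure D2:**
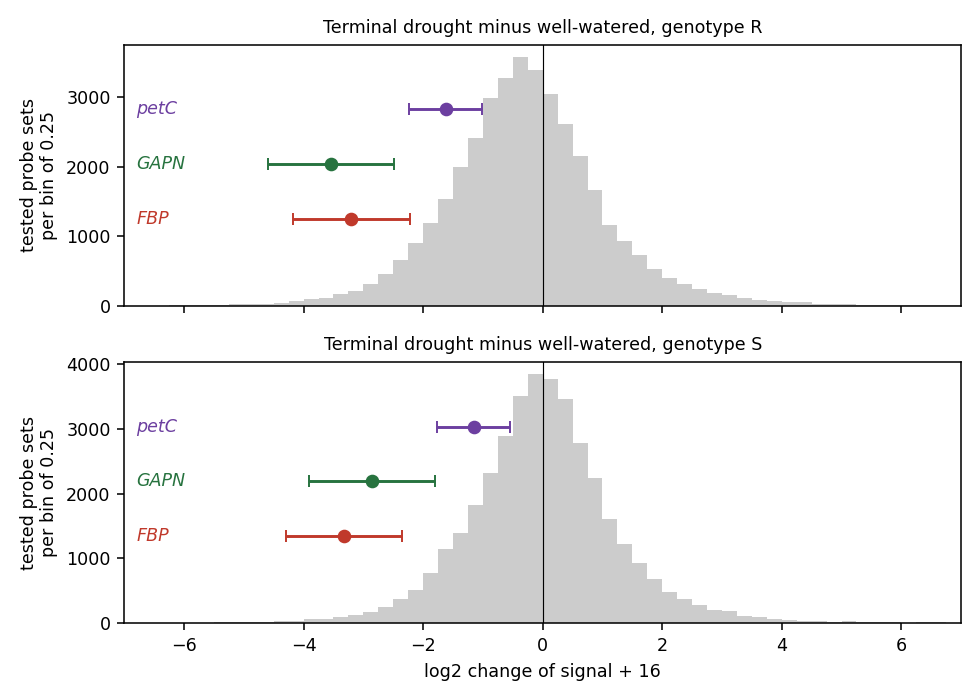
Log2 change of signal + 16, terminal drought minus well-watered, for R (top) and S (bottom). Grey bars count the 38398 tested probe sets in bins of 0.25, and coloured points with bars are the 3 genes with 95% limma intervals, placed at arbitrary heights. FBP and GAPN lie near the lower end of the grey distribution and petC on its shoulder.

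Replicate 1 of R under drought was the lowest array for each gene, with log2 deviations from its group's mean of −1.49 for FBP, −1.61 for GAPN and −0.77 for petC. Replicate 3 was the highest of that group for each gene, by 0.99, 1.20 and 0.40 above the mean. Ubiquitin was highest on replicate 1 and lowest on replicate 3, the reverse of the 3 genes, with 28071, 27885 and 21685 on replicates 1, 2 and 3. Sucrose synthase was likewise highest on replicate 1 and lowest on replicate 3. Its 3′ probe set had 25067, 14942 and 14397 there, against 2724 to 3471 in well-watered R. Without replicate 1 of R under drought, the log2 changes in R were −2.46 for FBP, −2.74 for GAPN and −1.24 for petC, and all 3 still passed the threshold (adjusted p = 1.34e-05, 1.19e-05 and 0.00092, limma). Without replicate 3 they were −3.70, −4.14 and −1.82. The fold change of FBP and GAPN in R therefore moved by over 1.5 times with replicate 1 left out, and that of GAPN also with replicate 3 left out.

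The scaling of the arrays mattered for petC and not for the calls of the others. Over all tested probe sets the median change was −0.322 in R and −0.0254 in S with the deposited scaling, and relative to it the changes were −2.88 for FBP, −3.22 for GAPN and −1.30 for petC in R, and −3.30, −2.83 and −1.13 in S. Scaled to ubiquitin, FBP changed by −2.91 in R and −3.18 in S, GAPN by −3.26 and −2.71, and petC by −1.33 and −1.01, all past the threshold (adjusted p = 0.000233 to 0.0275, limma). The petC change in R dropped to −0.70 and lost its call when arrays were scaled to the hybridization control probe sets (adjusted p = 0.28). That scaling moved the median of all tested probe sets in R to 0.494, and petC relative to the median was −1.19. A scaling by 1 factor per array shifts petC and the median nearly alike, so this value is no check of the call. Quantile normalization is not of that kind, and with it petC relative to the median was −1.55 in R and −0.82 in S. In S, petC did not pass with quantile normalization (−0.83, adjusted p = 0.077), hybridization controls (−1.10, adjusted p = 0.099) or poly-A controls (−0.72, adjusted p = 0.30). Averaged over the genotypes, where 23.7% of tested probe sets were lower, petC passed under each scaling, at −1.39 as deposited (adjusted p = 6.74e-05, limma) and −1.17 to −0.90 under the others.

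**Figure D3:**
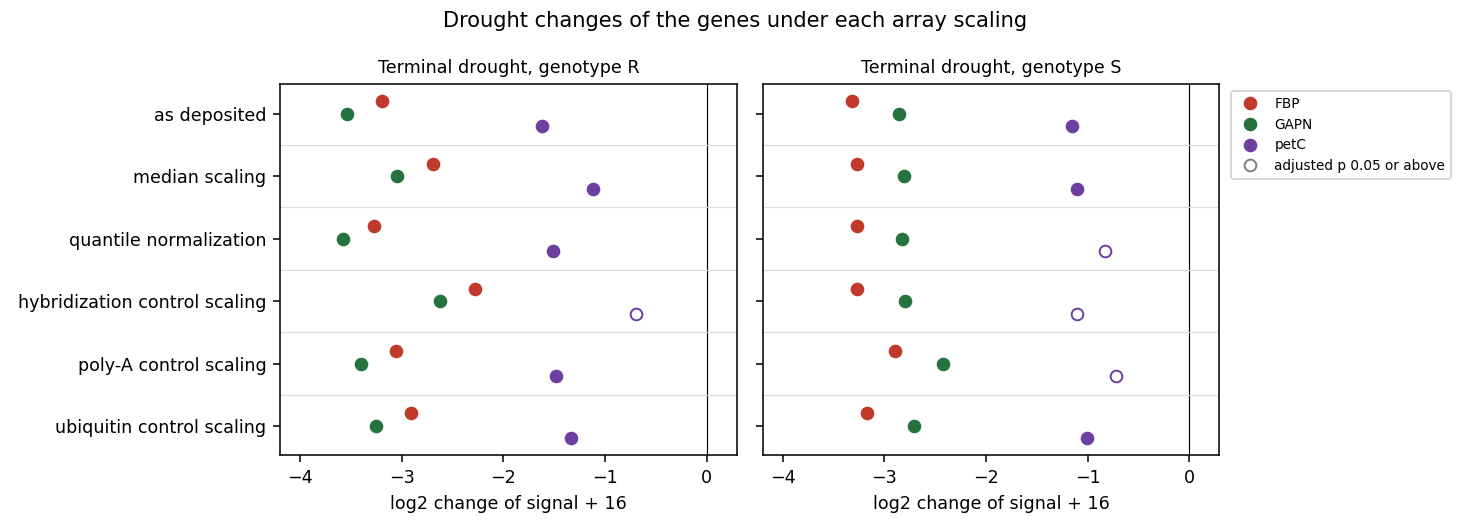
Log2 change of signal + 16 under terminal drought for each gene as deposited and under 5 other scalings, in R (left) and S (right). Filled points pass an adjusted p of 0.05 (limma) and open points do not. Each point lies below 0. The 4 open points are all petC, 1 in R and 3 in S.

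Ratios between genes on the same array do not depend on any scaling by 1 factor per array (quantile normalization is not of that kind). They showed that the signal of petC fell less under drought than those of FBP and GAPN. Saturation of bright spots is not removed by such a ratio and was not analysed. A smaller fall of the petC transcript itself is therefore not established. The level of such a ratio is not read, since it sets 1 probe set against another, but its difference between groups is. The petC over FBP signal ratio was 23.1, 12.5 and 9.08 in R under drought, against 5.31, 3.24 and 5.47 in well-watered R. In S it was 19.2, 17.6 and 17.4 under drought, against 4.27, 4.14 and 3.58 in well-watered plants. All 6 drought arrays thus lay above every well-watered array. Averaged over the genotypes the ratio was 3.71-fold higher under drought, a log2 difference of 1.89 ± 0.24 (SE). An exact permutation test within genotypes gave p = 0.005 (two-sided), the smallest its 400 relabellings can give, and 0.0075 adjusted over the 3 ratios.

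The petC over GAPN ratio rose likewise. It was 48.6, 24.96 and 14.7 in R under drought, against 7.01, 4.70 and 9.13 in well-watered R, and 16.5, 16.3 and 20.6 in S under drought, against 6.01, 5.15 and 5.08 in well-watered S. The mean log2 difference was 1.84 ± 0.29 (SE), or 3.58-fold, with an exact permutation p of 0.005 (two-sided, the smallest possible) and 0.0075 adjusted. The 3 ratios are not independent, because each is fixed by the other two. Without any 1 array, the mean log2 difference stayed between 1.70 and 2.04 for petC over FBP and between 1.62 and 2.05 for petC over GAPN.

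No drought change of the GAPN to FBP ratio over both genotypes passed the test, and under drought the ratio stood apart between them. The GAPN over FBP signal ratio was 0.475, 0.501 and 0.616 in R under drought, against 0.757, 0.689 and 0.599 in well-watered R. In S it was 1.17, 1.08 and 0.843 under drought, against 0.711, 0.804 and 0.704 in well-watered S. It was thus lower under drought on average in R, where the groups overlapped, and higher in S, where they did not. Averaged over genotypes the log2 difference was 0.05 ± 0.11 (SE, exact permutation p = 0.745, two-sided). The change was −0.36 in R and 0.47 in S, a difference of −0.83 ± 0.22 (SE) that did not pass the exact permutation test (p = 0.095, two-sided, 0.285 adjusted over the 3 ratios). Leaving out each array in turn kept this difference between −0.97 and −0.73. The corresponding difference between the genotypes was −0.58 ± 0.47 for petC over FBP (SE, exact permutation p = 0.245, two-sided, 0.3675 adjusted) and 0.25 ± 0.59 for petC over GAPN (p = 0.725, 0.725 adjusted), and neither passed. All 3 of these tests relabel the genotype within each regime, so a difference confined to 1 regime leaves them little room to pass. That they did not pass does not show equal change in the genotypes.

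Between the droughted genotypes alone, the 3 GAPN over FBP ratios of R all lay below the 3 of S, a log2 difference of −0.95 ± 0.15 (SE). An exact permutation test of 3 arrays against 3 gave p = 0.1 (two-sided), the smallest it can give, so this comparison cannot pass the threshold. In well-watered plants the difference was −0.12 ± 0.15 and the arrays overlapped (exact permutation p = 0.4). The array is made for wheat. Within 1 regime, a base difference between the genotypes under a probe set cannot be told apart from a difference in level. Whether one bears on the gap seen under drought was not tested.

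**Figure D4:**
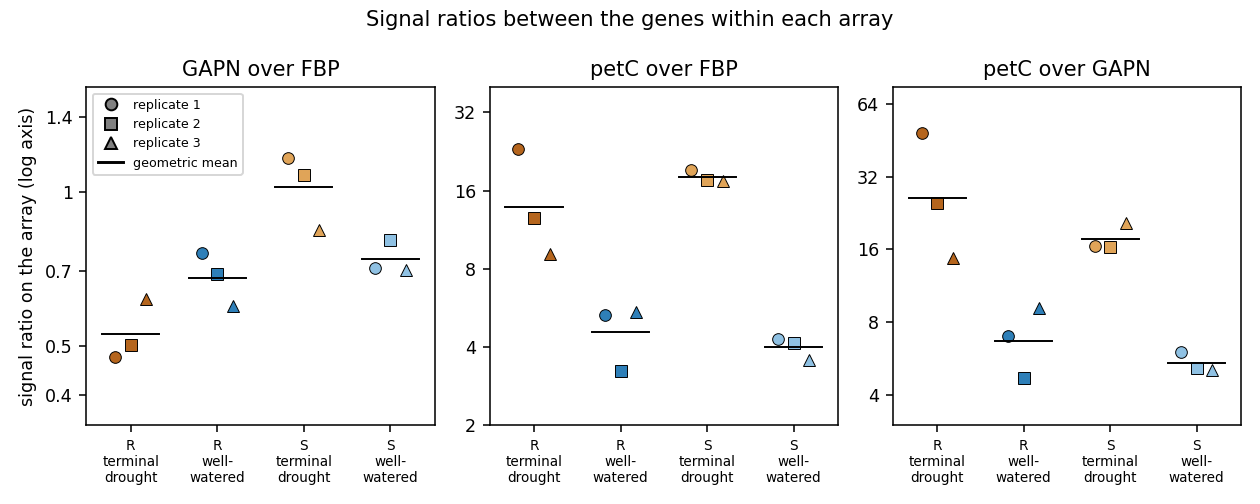
Signal ratios between the first probe sets of the 3 genes on each array, on log axes, by genotype and water regime. Points are arrays (shape gives the replicate number) and lines are geometric means of 3 arrays. Both ratios with petC on top lie higher on all drought arrays, while GAPN over FBP is 0.475 to 0.616 in R under drought and 0.843 to 1.17 in S under drought.

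For the single genes, no genotype difference passed the threshold in either regime, where 7.28% of tested probe sets did in well-watered plants and 7.48% under drought. In well-watered plants, R minus S was −0.32 for FBP, −0.44 for GAPN and −0.13 for petC on the log2 scale (adjusted p = 0.741, 0.665 and 0.842, limma). The 95% intervals were −1.29 to 0.65, −1.50 to 0.61 and −0.74 to 0.48, which for FBP and GAPN include a 2-fold lower level in R. Every well-watered R array lay below every well-watered S array for FBP (highest of R 15085, lowest of S 15541). The same held for GAPN (10400 and 10967), while the petC arrays overlapped. The share of all tested probe sets separated in this way was not computed, so the separation is not read as a genotype difference. Fitted to these 2 groups alone, adjusted p was 0.36 for FBP and 0.205 for GAPN (limma). Under drought, R minus S was −0.20 for FBP, with an interval of −1.17 to 0.77, −1.13 for GAPN, with −2.18 to −0.07, and −0.60 for petC, with −1.21 to 0.02. Their adjusted p were 0.861, 0.198 and 0.248 (limma), and the arrays of the genotypes overlapped for each gene. The GAPN difference depended on R under drought, with −1.73 without its replicate 3 (adjusted p = 0.0251) and −0.32 without its replicate 1 (adjusted p = 0.641). The FBP difference turned to 0.55 without that replicate 1 (adjusted p = 0.284), and to 0.38 with hybridization control scaling and 0.15 with array weights.

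Whether drought changed a gene more in one genotype was tested as an interaction, which 0.148% of tested probe sets passed. The drought change in R minus that in S was 0.12 ± 0.64 for FBP, −0.69 ± 0.70 for GAPN and −0.47 ± 0.40 for petC (SE, adjusted p = 0.959, 0.715 and 0.658, limma). The intervals, −1.25 to 1.50, −2.18 to 0.81 and −1.33 to 0.40, include 2-fold differences in response for each gene. The sign of the FBP value turned with poly-A control scaling and quantile normalization and without any 1 of 4 arrays, and those of GAPN and petC turned with hybridization control scaling, that of GAPN also without replicate 1 of R under drought. The order of mean signals for each gene was highest in well-watered S, then well-watered R, then the droughted groups. Within a regime, neighbours in that order did not pass the test of their difference. The 2 droughted groups have no settled order for FBP, since the mean signal was 1700 in R and 1586 in S while the log2 difference of −0.20 runs the other way.

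The second probe sets gave little measurement of drought. That of FBP had 19.8, 58.6 and 29.9 in R under drought, against 198, 79.5 and 441 in well-watered R. It had 45.1, 73.1 and 80.3 in S under drought, against 24.7, 99.9 and 96.4 in well-watered S. Only 2 arrays, both of well-watered R, lay above the control level. With droughted arrays set to that level the probe set was 1.48-fold lower in R under drought. This value took well-watered replicate 2 at 79.5, itself below the control level, so it is not a lower bound. It also rested on well-watered replicate 3. Without that array it was 0.973, which is under 1 and gives no fold. The fitted change was −2.08 ± 0.62 (SE, adjusted p = 0.0179, limma). It no longer passed when every signal was raised to at least the control level (−0.74, adjusted p = 0.121) or with hybridization control scaling (−1.32, adjusted p = 0.11). Leaving out well-watered replicate 3 (−1.53, adjusted p = 0.0881) or drought replicate 1 (−1.85, adjusted p = 0.0689) of R also ended the call. In S all arrays were below the control level, so differences between them are not a measured change and no fold is given. The second petC probe set had 2.42 to 51.4 on all 12 arrays, below the control level throughout, and was not tested. Neither therefore checks the first probe set of its gene, and copies of a gene in the A and B genomes of this tetraploid may share a probe set.

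Of 41 symbols listed for photosynthetic electron transport, light harvesting, the Calvin cycle, and triose and hexose phosphate metabolism, 4 were paired with a probe set by the annotation, the 3 genes and PFK. Since the annotation names only 13 genes by symbol, an unmatched symbol does not mean that the array lacks the gene. PFK, phosphofructokinase, catalyses in glycolysis the step opposite to FBP. Its probe set was not measured here, with 1.93 to 13.9 in R under drought, against 32.6 to 202 in well-watered R, and 5.43 to 46.3 in S under drought, against 20.9 to 51.2 in well-watered S. Of its 12 values, 1 lay above the control level. The phosphorylating glyceraldehyde-3-phosphate dehydrogenase, the glycolytic counterpart of GAPN, is named in 5 wheat control probe sets. Other probe sets for it may be on the array without a paired gene. Only 24 of the 60 values of these 5 lay above the control level, and none of them did on all arrays, so no drought change is given for the enzyme.

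The 3 genes followed a similar pattern over the 12 arrays, with Pearson's r of log2 values of 0.979 for FBP and GAPN, 0.953 for FBP and petC, and 0.972 for GAPN and petC. As a description, these r mostly express the water regime, and the arrays share the scaling. Of all tested probe sets, 0.417% were at least as alike to FBP as GAPN was, and 1.83% as petC was. In deviations from the group means, r was 0.973 for FBP and GAPN over 12 arrays and 0.732 over the 9 arrays outside R under drought. For petC it was 0.871 with FBP and 0.822 with GAPN over 12 arrays, and 0.408 and 0.158 over those 9. The shared array-to-array pattern with petC thus rested mostly on the 3 arrays of R under drought.

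Among 965 tested probe sets of 642 annotated genes, those most alike to FBP over the 12 arrays were LOC543496 (r = 0.992), LOC543106 (0.988) and LOC100037649 (0.986). They changed by −4.92, −2.38 and −3.19 on the log2 scale in R and by −4.78, −2.95 and −3.16 in S. Most alike to GAPN were LOC542973 and LOC542768 (both r = 0.994) and LOC543290 (0.993), with −2.02, −2.76 and −4.47 in R and −1.55, −2.13 and −3.58 in S. For petC they were LOC543283 and LOC543290 (both r = 0.988) and LOC542973 (0.986), with −3.57, −3.32 and −2.02 in R and −2.66, −2.19 and −1.55 in S. LOC543290 is represented by a different probe set in the GAPN and petC lists. The annotation gives no function for these locus numbers.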

How the data were processed

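Total RNA of 12 samples was biotin-labelled with a one-cycle protocol and hybridized to wheat oligonucleotide arrays, 1 array per sample, per the labels' protocols. The authors deposited linear signal intensities from MAS5, as the submitters' processing notes name the tool. Its version (like masking and target) is not given in the sources used here. Each array had the same trimmed mean of 500.3, taken without 2% of probe sets at either end, so the deposited values had been scaled.

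From these intensities log2(signal + 16) was computed. Without 111 control and 64 reporter probe sets there were 61115, and the 38398 that exceeded the array median on 3 or more arrays were tested. With limma 3.58.1 in R 4.3.3, means of the 4 groups were fitted to the 12 arrays (eBayes with a trend), and p-values were adjusted over all tested probe sets within each of 6 contrasts (Benjamini-Hochberg, threshold 0.05). Within-array ratios used no pseudocount and exact permutation tests (Python 3.11.15). Intervals are 95% limma intervals. Gene names came from the platform annotation, which pairs 1273 probe sets with 771 genes. Named were the 5 probe sets of the 3 genes, genes of 4 pathway lists, the 3 annotated genes most alike to each, and wheat control probe sets. The members and lists were chosen with earlier results of these data known. The fit and the permutation test were tested on simulated data. Alternatives were other pseudocounts, scalings, filters, weights, groups and a replicate block, each array left out, and a scaling to ubiquitin chosen after seeing the data. Groups and replicate numbers came from the sample titles, since part of the description repeats 1 group's name in every sample.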

Additional observations from a re-analysis of the deposited data

How the results depend on the processing

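FBP and GAPN kept direction and call for drought in R, in S and on average under all alternatives run, with log2 changes of −3.58 to −2.28 on all arrays. Leaving out each array gave −3.70 to −2.46 (FBP, R), −4.14 to −2.74 (GAPN, R), −3.47 to −3.13 (FBP, S), −3.04 to −2.76 (GAPN, S), −1.82 to −1.24 (petC, R) and −1.28 to −1.01 (petC, S). petC lost its call in R with hybridization control scaling (−0.70) and in S with hybridization control scaling (−1.10), poly-A control scaling (−0.72) and quantile normalization (−0.83). The cause was not tested. Values that turned sign had passed no threshold: petC, R minus S well-watered, with poly-A control scaling (0.088) and quantile normalization (0.11); FBP, R minus S under drought, with hybridization control scaling (0.38) and array weights (0.15); the interaction of FBP with poly-A control scaling (−0.17) and quantile normalization (−0.0016), and those of GAPN (0.17) and petC (0.40) with hybridization control scaling.

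With arrays left out, R minus S under drought ranged from −0.69 to 0.55 for FBP and −1.73 to −0.32 for GAPN, and the interaction from −0.37 to 0.87 for FBP and −1.28 to 0.12 for GAPN. The GAPN over FBP ratio ranged from −0.0052 to 0.12 for mean drought, the petC over FBP interaction from −0.95 to −0.28 and the petC over GAPN interaction from −0.20 to 0.66. The second FBP probe set ranged from −2.65 to −1.53 in R. In S its values compare signals that all lie below the control level and are no measured change: −0.0053 as deposited, 0.046 with a pseudocount of 1, 0.043, 0.011, 0.27 and 0.10 with median, hybridization control, poly-A control and ubiquitin scaling, and −0.50 to 0.25 with arrays left out. The labels do not say what samples with the same replicate number share. In deviations from group means, r was over 0.1 in 1 of 18 same-numbered pairs and in 2 of 36 other pairs. The 1 pair was replicate 1 of R and of S under drought (r = 0.181). These r cannot decide whether same-numbered samples were handled together. The replicate block altered no call. With it, FBP changed by −3.20 in R, and the petC ratios kept an exact permutation p, adjusted over the 3 ratios, of 0.0469. The number of arrays limits precision, with 0.473 as the typical (median) SE between 2 groups.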
